A study of Mus musculus with 54 samples.

Results

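The integrated stress response genes described here are 10 genes of the ATF4 pathway, Atf4, Ddit3, Atf3, Trib3, Chac1, Ddit4, Sesn2, Asns, Psat1 and Phgdh, found by the symbol of their Ensembl identifier among the 54232 genes counted in each library. The set was chosen by the higher Chac1 level measured in the kidney of Cmpd60-treated mice, and the question put to it is whether other genes of the pathway moved with Chac1. Since that kidney comparison chose the set, its values are given as a description and no test is drawn from it. The vehicle kidneys were part of that comparison, so their levels beside other tissues are also given without a test. The treatment effect in brain, heart and the brains of a dementia cohort, and the levels in vehicle-treated heart and brain, were not used in the choice and were tested.

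In the integrated stress response, kinases that sense lack of amino acids, unfolded protein, haem shortage or viral RNA phosphorylate the translation factor eIF2alpha. Bulk protein synthesis then falls, while the messenger RNA of the transcription factor ATF4 is translated more, so that ATF4 activity can rise with little change in its RNA. ATF4 binds composite sites shared by C/EBP and ATF proteins and raises genes for amino acid synthesis and uptake, tRNA charging and, when stress lasts, cell death. Chac1 encodes an enzyme that breaks down glutathione, and its transcription is a sensitive readout of this pathway.

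The letters TGATGNAAN, the core of a C/EBP and ATF composite site, were searched on both strands of the promoter windows of RefSeq for the build GRCm38.p6, each reaching from 250 bases before to 50 bases after the annotated start. They were present in 1299 of 32851 windows, or 3.95%, and in the windows of 4 of the 10 genes, Chac1, Atf3, Asns and Trib3. The full cyclic AMP response element TGACGTCA was present in 588 windows, or 1.79%, and in none of the 10 genes. A match is a description of letters and not of a bound site. The stretches that hold the motif are shown for these 4 genes because Chac1 is the gene the set is built on, and the match is in capitals, on the strand of the gene.

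Chac1, chr2:119350992-119351241, plus strand, the 250 bases before the start: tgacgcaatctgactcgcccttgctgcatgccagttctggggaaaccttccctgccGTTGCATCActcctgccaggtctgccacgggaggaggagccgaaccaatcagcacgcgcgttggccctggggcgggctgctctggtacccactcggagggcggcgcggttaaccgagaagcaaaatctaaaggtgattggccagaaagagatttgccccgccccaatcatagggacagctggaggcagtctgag
Atf3, chr1:191183411-191183469, minus strand, 59 bases around the match: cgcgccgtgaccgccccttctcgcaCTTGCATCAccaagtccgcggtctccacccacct
Asns, chr6:7693210-7693257, minus strand, the 48 bases before the start: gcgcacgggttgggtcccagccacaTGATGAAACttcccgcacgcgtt
Trib3, chr2:152344029-152344057, minus strand, 29 bases just after the start: ttagctcaggTTTACATCAgccgggcggg

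In Chac1 the match ran from position -194 to -186 relative to the start and read tgatgcaac on the opposite strand. In Atf3 it ran from -111 to -103 and in Trib3 from 14 to 22, both on the opposite strand, and in Asns it ran from -23 to -15 on the strand of the gene. The genome build behind the counts is not given in the sources used here, so these positions belong to RefSeq alone.

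RNA of 54 libraries was counted. Kidney, brain and heart came from male BL6 mice of about 20 months, all single housed and injected intraperitoneally each day for 14 days with 22.5 mg/kg Cmpd60, a benzamide that inhibits HDAC1 and HDAC2, or with vehicle. They gave 6 Cmpd60 and 5 vehicle kidneys, 6 and 6 brains, and 5 and 6 hearts. The dementia cohort comprised brains of APPSWE-1349 mice, which carry a transgene of human amyloid precursor protein, and of their ADcontrol littermates. The APPSWE-1349 mice were male and of BL6 background. Animals of this cohort were aged 6 to 7 months, single housed and given the same 14 days of Cmpd60 or vehicle. For this cohort the paper describes an overnight fast before death. The cohort gave 5 vehicle and 4 Cmpd60 APPSWE brains and 5 vehicle and 5 Cmpd60 ADcontrol brains. A further APPSWE library was left out because the labels call it vehicle and a table heading of the study calls it Cmpd60. In the kidney, the treatment field of the labels gives the opposite of the titles, source names and table headings. The titles were followed, and the sign of each kidney difference rests on that choice. The promoter of the transgene is not given in the sources used here. Which libraries of different tissues came from 1 mouse is not in the labels.

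Between 23584609 and 57430113 reads per aged library and between 25052335 and 55871402 per dementia library were counted on genes, so that a count of 0 allows up to 0.127 CPM (read counts per 1000000 reads of the TMM-scaled library size) in the shallowest library, for counting error only. Treated brains were read more deeply than vehicle brains, with medians of 38855584.5 and 28188597.5 counts. The labelled tissues carried their markers. Summed over the list, kidney tubule and glomerulus markers were at 7691 CPM or more in kidneys and at 18.7 CPM or less in the other aged tissues, cardiomyocyte markers were at 66150 CPM or more in hearts and at 15.3 CPM or less elsewhere, and neuron markers were at 4315 CPM or more in brains and at 105 CPM or less elsewhere. In the dementia cohort, 5 of the 19 fitted libraries had fewer than 17000 genes detected, and in the kidney 2 of the 11 libraries, both treated, had fewer than 20000. These 2 kidneys had 18512 and 19385 genes detected, and vehicle replicate 49 had 20069, just above the limit. Leaving out kidneys under the limit thus removes treated libraries only. Differences of the 10 genes that involve the libraries under these limits are given with and without those libraries. The exception is the difference of the Cmpd60 effect between genotypes, given with those libraries for Ddit4 alone. Values of the other gene lists are given only with those libraries.

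In the kidney of Cmpd60-treated mice, 9 of the 10 genes had a higher and 1 a lower fitted level than in vehicle kidneys, with a median log2 difference of 0.31 over the 10 genes and of 0.00 over all 20698 genes tested. Of the 10, 0 were past an adjusted p-value of 0.05 in edgeR's quasi-likelihood test, beside 0.300% of all genes tested, and 4 had an unadjusted p-value below 0.05, beside 11.3%. In DESeq2 3 passed, Chac1, Atf4 and Psat1, and the share of all genes that passed in DESeq2 is not given here. These counts come from the contrast that chose the set and are given as a description only. Chac1 was at 0.622, 0.589, 0.577, 0.869 and 0.822 CPM in the vehicle kidneys, or 15 to 31 reads, and at 0.793 CPM in the lowest, 1.59 CPM at the median and 2.22 CPM in the highest treated kidney, or 28 to 81 reads. The treated kidneys were thus high in 5 of 6 libraries, and only replicate 54 fell within the vehicle range. The fitted difference was 1.15 on the log2 scale (SE 0.32), or 2.22-fold, with a range of 1.02 to 1.29 over all alternative settings.

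Atf4, the transcription factor of the pathway, was at 62.1, 64.16, 60.5, 60.4 and 57.4 CPM in the vehicle kidneys and at 64.19, 78.2 and 95 CPM as lowest, median and highest of the treated kidneys. All 6 treated kidneys were above all vehicle kidneys, though the lowest treated library lay next to the highest vehicle library, and 1.10% of all genes tested were likewise higher with no overlap. Its log2 difference was 0.38 (SE 0.10). Ddit3, which encodes the transcription factor CHOP that follows ATF4, was at 6.06, 5.06, 5.27, 3.91 and 6.23 CPM in vehicle and at 4.59, 8.55 and 10.9 CPM as lowest, median and highest in treated kidneys, with 5 of 6 treated libraries above the vehicle range and a log2 difference of 0.61 (SE 0.20). In RefSeq the ends of Ddit3 overlap those of Mbd6 and Mars1. The paper states that the direction of reads was used in counting, and any effect of the overlap on the Ddit3 counts was not tested. Atf3, a stress-induced partner and target of ATF4, ranged from 1.62 to 6.81 CPM in vehicle and from 2.88 to 12.2 CPM in treated kidneys, and its groups overlapped in 4 of the treated libraries, with a log2 difference of 0.51 (SE 0.43), which was 0.23 without the 2 treated libraries with fewer than 20000 genes detected. Trib3, a pseudokinase that ATF4 and CHOP induce and that restrains ATF4, ranged from 1 to 2.30 CPM in vehicle kidneys and from 0.259 to 2.33 CPM in treated kidneys. Its log2 difference was 0.13 (SE 0.42), and it was 0.47 without the 2 treated libraries with fewer than 20000 genes detected, of which replicate 53 held the low value.

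**Figure D1:**
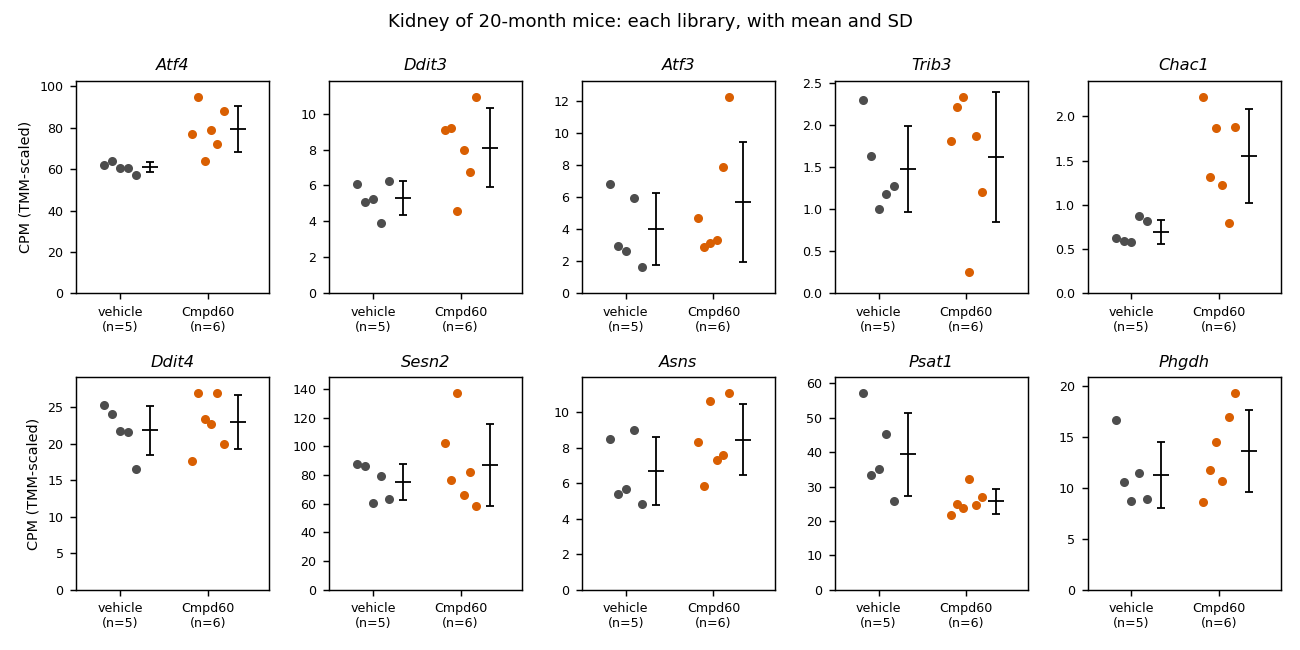
Each panel shows 1 gene in the kidney of 20-month mice, with CPM on the vertical axis from 0 and 1 point per library in order of its number, grey for 5 vehicle and orange for 6 Cmpd60 libraries, beside the mean and SD. Chac1 and Atf4 were higher in most or all treated libraries and Psat1 was lower in 4 of 6, while Trib3, Ddit4 and Sesn2 overlapped widely.

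The genes that restrain growth signalling through mTORC1 differed little. Ddit4 ranged from 16.5 to 25.2 CPM in vehicle and from 17.7 to 26.9 CPM in treated kidneys, with a log2 difference of 0.07 (SE 0.13). Sesn2, a leucine sensor, ranged from 60.6 to 87.4 CPM and from 58.5 to 137 CPM, with a difference of 0.21 (SE 0.19), which was 0.04 without treated replicate 52 and 0.40 without the 2 treated libraries with fewer than 20000 genes detected. Among the enzymes of amino acid synthesis, asparagine synthetase Asns had a difference of 0.34 (SE 0.21) and phosphoglycerate dehydrogenase Phgdh, the entry step of serine synthesis, one of 0.28 (SE 0.21), both with overlapping groups. Psat1, the next enzyme of the same serine pathway, went the other way. It was at 57.2, 33.4, 35.2, 45.4 and 25.8 CPM in vehicle kidneys and at 21.6, 24.9 and 32.1 CPM as lowest, median and highest in treated kidneys, and 4 of 6 treated libraries were below the vehicle range. Its log2 difference was -0.61 (SE 0.17).

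Among the kidneys of a group, the correlations between the 10 genes were of mixed sign. After each group was centred on its mean, Chac1 had a Pearson r of 0.41 with Asns, -0.07 with Atf4 and -0.72 with Ddit4 over the 11 libraries, and 27 of the 45 pairs of the set had a positive r, with a median of 0.14. The 5 genes whose log2 CPM followed Chac1 most closely, among 14427 genes with a mean of at least 1 CPM, were Lrig3 (0.92), Diexf (0.90), Zfp59 (0.86), Atg4a (0.85) and Naa15 (0.84), and the nearest gene of the set, Asns, ranked 1685th. These are correlations over 11 libraries that share depth and composition, with 15 to 81 Chac1 reads each. In the 12 aged brains, 33 of 45 pairs had a positive r, with a median of 0.33. Chac1 had an r there of 0.78 with Asns, 0.63 with Atf4 and -0.44 with Ddit4. In the 11 hearts, 21 pairs were positive, with a median of -0.06, and Chac1 had -0.22 with Asns and -0.56 with Atf4. In the 19 dementia libraries, 32 pairs were positive, with a median of 0.15, and Chac1 had 0.72 with Asns and -0.44 with Atf4. The part of counting error was not tested, and no p-value is given.

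The wider ATF4 program was followed with a list of 44 further genes, 14 for amino acid and one-carbon metabolism, 10 amino acid transporters, 12 tRNA synthetases, 6 bZIP partners of ATF4 and the stress hormones Gdf15 and Fgf21. In the kidney, 43 were tested, 34 with a higher and 9 with a lower fitted level in treated mice, and the median log2 difference was 0.13. Past the threshold was 1 gene, beside 0.300% of all genes tested, and that call was lost when any of the Cmpd60 replicates 50 and 51 or the vehicle replicates 46, 47 and 49 was left out. It was Atf5, a close relative of ATF4 that is translated under the same stress, at 12.3 to 18.7 CPM in vehicle and 22.3 to 27.3 CPM in treated kidneys, a log2 difference of 0.68 (SE 0.12). Unadjusted p-values below 0.05 were found for 8 higher and 1 lower gene of the 43, beside 11.3% of all genes. Both counts come from the kidney contrast that chose the set and are a description only, as are the kidney counts of the other lists below. The largest differences named next are descriptive in the same way. Among the genes with an unadjusted p-value below 0.05, the largest differences were those of alanine aminotransferase Gpt2 at 1.19 (SE 0.25), from 85.7 to 142.2 CPM in vehicle and from 152 to 404 CPM in treated kidneys, and of the stress-induced nuclear protein Nupr1 at 0.93 (SE 0.20), from 16.7 to 25.2 CPM and from 27.9 to 66.3 CPM. Neither Gpt2 nor Nupr1 overlapped between the groups, beside 1.10% of all genes higher with no overlap. Gdf15, a circulating stress hormone, had a difference of 0.70 (SE 0.28) with overlapping groups. It was at 8.70 to 15.1 CPM in vehicle and at 12.8 to 41.3 CPM in treated kidneys, with medians of 12.9 and 15.5 CPM. Slc6a9, a glycine transporter, had a difference of -0.36 (SE 0.13), also with overlapping groups. The 12 tRNA synthetases were close to the level of vehicle mice, with 10 higher and 2 lower and a median of 0.03.

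Of 14 genes of glutathione synthesis and breakdown, the pathway in which Chac1 acts and with Chac1 itself counted among them, 9 had a higher and 5 a lower level in treated kidneys and none passed the threshold. Chac2, the related glutathione-degrading enzyme, had a log2 difference of -0.53 (SE 0.12), and Ggct, which acts on the dipeptide products of glutathione, one of -0.57 (SE 0.12), while Oplah, which opens 5-oxoproline, had one of 0.37 (SE 0.13). The 16 genes of the eIF2alpha kinases, phosphatases and eIF2B and their regulators had a median of -0.0011, with 8 higher and 8 lower, and Impact, an inhibitor of the amino acid sensing kinase GCN2, at -0.33 (SE 0.08) was the one with an unadjusted p-value below 0.05. The 20 genes of the XBP1 and ATF6 arms of the unfolded protein response had a median of 0.04. Hdac1 and Hdac2, the targets of the compound, had differences of 0.20 (SE 0.08) and 0.03 (SE 0.10).

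Markers of tubule injury and of kidney cell types overlapped between the groups. All 4 markers of tubule injury had higher fitted levels in treated kidneys, none past the threshold, and their sum ranged from 54.3 to 1087 CPM in treated and from 76.3 to 287 CPM in vehicle kidneys. Lcn2 had the largest difference, with a mean of 105 CPM against 22.8 CPM. Of the 11 tubule and glomerulus markers, 7 were lower and 4 higher, with sums of 8111 to 17559 CPM in treated and 14186 to 17120 CPM in vehicle kidneys, and no marker of either list had a mean of 0 in either group. In bulk tissue, fewer cells of a type and less RNA per cell cannot be told apart. The part of these markers in the values of the stress genes was not tested. Without the 2 treated libraries with fewer than 20000 genes detected, the log2 differences were 1.15 for Chac1, 0.34 for Atf4, 0.48 for Ddit3, 0.12 for Ddit4, 0.28 for Asns, 0.20 for Phgdh and -0.72 for Psat1.

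In the brain of 20-month mice, none of the 10 genes passed the threshold in edgeR's quasi-likelihood test with Benjamini-Hochberg adjustment, nor in DESeq2 or limma-voom, where 0.0205% of all 24438 genes tested did in edgeR. At an unadjusted p-value below 0.05 there were 3 of the 10, beside 13.8% of all genes. Chac1 ranged from 5.58 to 7.79 CPM with a median of 6.94 in vehicle and from 5.92 to 8.12 CPM with a median of 7.44 in treated brains, and the groups overlapped in 5 of 6 treated libraries. Its log2 difference was 0.11 (SE 0.10), with a 95% interval from -0.10 to 0.32 and an adjusted p-value of 0.664 in edgeR's test. Atf4 ranged from 110 to 127 CPM in vehicle and from 118 to 132 CPM in treated brains, a difference of 0.10 (SE 0.05, unadjusted p-value 0.0485, adjusted p-value 0.360 in edgeR). Sesn2 was at 18.2 to 21.1 CPM in vehicle and 15.4 to 19.5 CPM in treated brains, a difference of -0.16 (SE 0.07, adjusted p-value 0.310 in edgeR), and Psat1 at 128.7 to 144.8 CPM and 113 to 141.6 CPM, a difference of -0.12 (SE 0.06, adjusted p-value 0.352 in edgeR).

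The other brain differences were smaller than or close to their errors. Atf3 had 0.28 (SE 0.21), Ddit4 -0.12 (SE 0.12), Phgdh -0.08 (SE 0.07), Ddit3 0.06 (SE 0.08), Asns 0.04 (SE 0.05) and Trib3 -0.01 (SE 0.24). For Asns, at 84.3 to 97.0 CPM in vehicle brains, the 95% interval ran from -0.07 to 0.15. Over the 10 genes the median was 0.01, as it was over all genes tested. Among neuron markers, 5 of 6 had a higher level in treated brains, 4 of them with an unadjusted p-value below 0.05 and none past the threshold, with sums of 5611 to 6949 CPM in treated and 5196 to 6004 CPM in vehicle brains. Sums in treated and vehicle brains were 3331 to 3973 and 3135 to 3493 CPM for astrocyte markers and 4665 to 6813 and 5474 to 6649 CPM for oligodendrocyte markers. They were 179 to 213 and 183 to 209 CPM for microglia markers and 221 to 930 and 538 to 760 CPM for choroid plexus markers. The part of these markers in the values of the stress genes in brain was not tested.

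In the heart, none of the 10 genes passed the threshold in edgeR's quasi-likelihood test, nor in DESeq2 or limma-voom, beside 1.18% of 19452 genes in edgeR, and 1 of the 10 had an unadjusted p-value below 0.05, beside 13.5% of all genes. That gene was Atf4, at 67.5, 76.1 and 88.1 CPM as lowest, median and highest in vehicle hearts and at 84.2, 105, 82.2, 93.0 and 85.4 CPM in treated hearts, where 2 of 5 treated libraries were above the vehicle range. Its log2 difference was 0.22 (SE 0.09), with an adjusted p-value of 0.251 in edgeR. Chac1 was at 0.248, 0.941 and 3.01 CPM as lowest, median and highest in vehicle hearts, or 6 to 126 reads, and at 1.13, 0.962, 1.28, 0.663 and 1.2 CPM in treated hearts. All treated hearts lay within the vehicle range, and the difference of -0.20 (SE 0.46, adjusted p-value 0.904 in edgeR) had a 95% interval from -1.18 to 0.78 and was 0.34 without vehicle replicate 67, which held the highest value.

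Phgdh had the largest heart difference of the set at -0.68 (SE 0.33, adjusted p-value 0.391 in edgeR), from 0.944 to 3.54 CPM in vehicle and from 0.962 to 1.74 CPM in treated hearts, with all treated libraries within the vehicle range. It rested on 24 to 89 reads in vehicle and 24 to 58 reads in treated hearts. Psat1 went the other way, at 0.31 (SE 0.18), as did Sesn2 at 0.23 (SE 0.13), Asns at 0.18 (SE 0.19) and Trib3 at 0.16 (SE 0.15). Ddit4 at 0.07 (SE 0.16), Ddit3 at 0.06 (SE 0.12) and Atf3 at -0.04 (SE 0.32) were close to 0 relative to their errors. The effects in heart and brain were compared in 1 fit over the 34 aged libraries, as if each came from a separate mouse. None of the 10 differences between the tissues passed the threshold in edgeR, nor in DESeq2 or limma-voom, and none had an unadjusted p-value below 0.05 in edgeR, beside 0.0517% and 9.08% of 27105 genes. The largest were those of Phgdh at -0.60 (SE 0.32), Psat1 at 0.42 (SE 0.21) and Sesn2 at 0.39 (SE 0.21). For Chac1 the difference was -0.35 (SE 0.44).

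**Figure D2:**
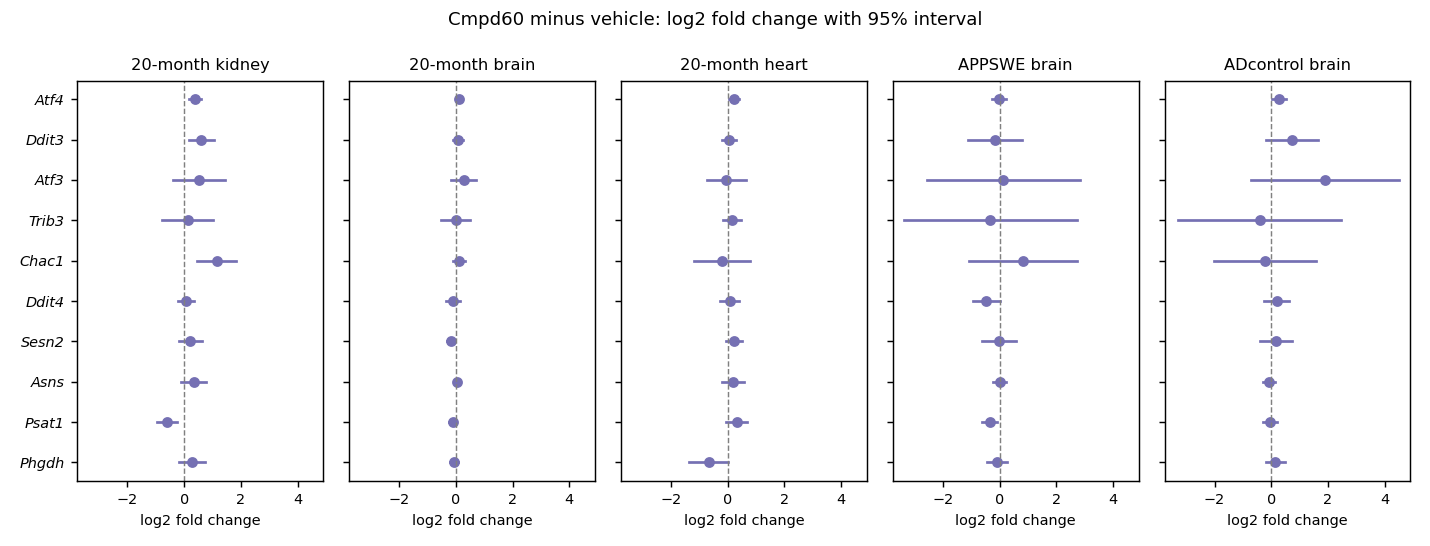
Each panel shows 1 comparison of Cmpd60 with vehicle, with the log2 fold change on the horizontal axis, the 10 genes down the vertical axis, and a point with its 95% interval for each. The kidney panel is a description only, since that comparison chose the set. It shows Chac1 at 1.15, Ddit3 at 0.61, Atf4 at 0.38 and Psat1 at -0.61. The intervals of Chac1, Atf3 and Trib3 are wide in both dementia comparisons.

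In the dementia cohort, the low-count genes of the set were read unevenly between libraries. The number of genes detected ran from 15044 to 24821, and it was below 17000 in the libraries vehicle-140 and vehicle-146 and Cmpd60 replicate 141 of APPSWE mice and in vehicle-155 and Cmpd60 replicate 152 of ADcontrol mice. Chac1 had 0 reads in the APPSWE library vehicle-146 and ADcontrol Cmpd60 replicate 152, while it was at 14.4 CPM, the highest value of the cohort, in APPSWE Cmpd60 replicate 141, all of which are among these 5. Ddit3 was at 0.804 CPM in the ADcontrol library vehicle-155 and at 32 CPM in ADcontrol Cmpd60 replicate 152, against 8.70 to 15.7 CPM in the other 17 libraries. Trib3 had 0 reads in 4 of the 5. The common biological coefficient of variation over all genes was 0.729 in the dementia cohort and 0.114 in the 20-month brains. The cause of the uneven detection was not tested.

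**Figure D3:**
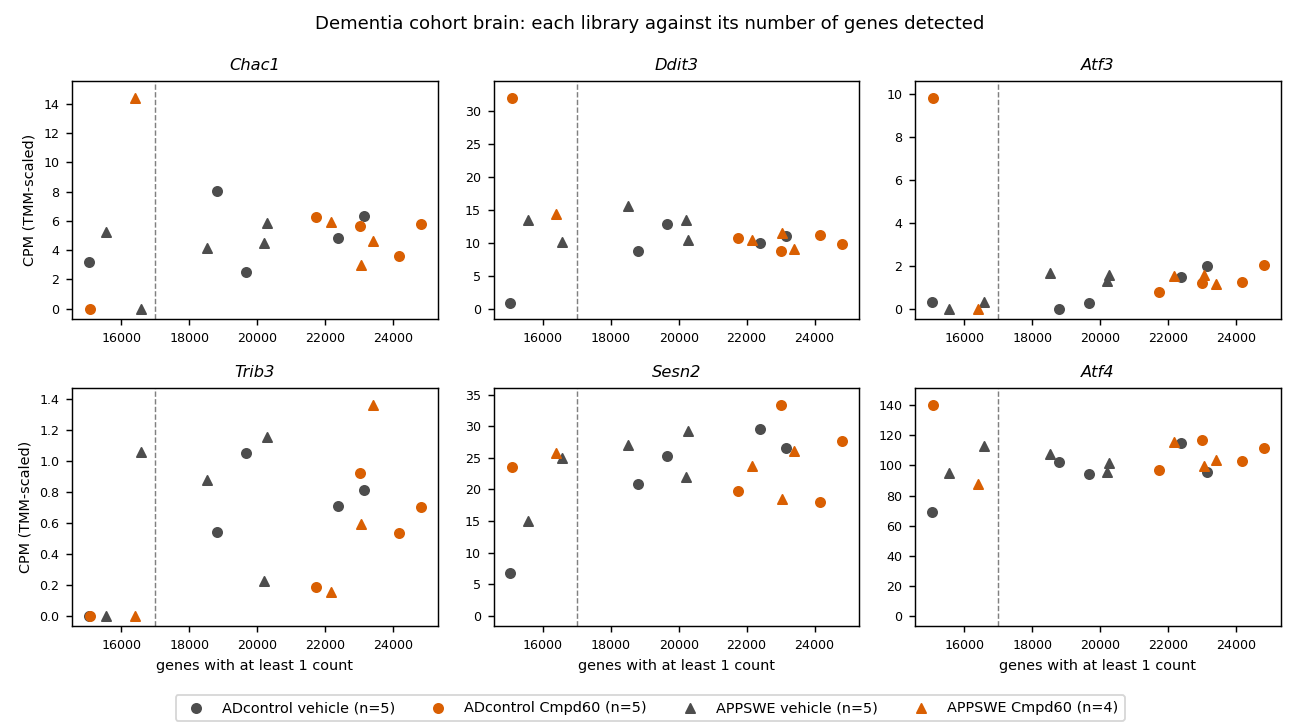
Each panel shows 1 gene in the 19 fitted brain libraries of the dementia cohort, with the number of genes detected on the horizontal axis and CPM on the vertical axis, circles for ADcontrol and triangles for APPSWE mice, grey for vehicle and orange for Cmpd60, and a dashed line at 17000 genes. The 6 genes are Chac1, Ddit3, Atf3, Trib3, Sesn2 and Atf4, and the highest values of Chac1, Ddit3, Atf3 and Atf4 lie left of the line.

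None of the 10 genes passed the threshold in APPSWE brains or in ADcontrol brains in edgeR's quasi-likelihood test, nor in DESeq2 or limma-voom, where 0 of 23194 genes did in edgeR in either comparison. An unadjusted p-value below 0.05 was found for 1 of the 10 in each, beside 9.46% of all genes in APPSWE and 3.67% in ADcontrol brains. In APPSWE brains, Chac1 was at 5.26, 5.87, 4.18, 4.48 and 0 CPM with vehicle and at 14.4, 2.99, 5.90 and 4.63 CPM with Cmpd60, a log2 difference of 0.82 (SE 0.93), which was -0.12 without the 5 libraries with fewer than 17000 genes detected. Psat1 was at 167, 138, 113, 121 and 138.9 CPM with vehicle and at 75.7, 109, 127 and 116 CPM with Cmpd60, with 2 of 4 treated brains below the vehicle range. Its difference of -0.34 (SE 0.13, unadjusted p-value 0.0118, adjusted p-value 0.444 in edgeR) was -0.08 without those 5 libraries. Ddit4 at -0.47 (SE 0.23), Trib3 at -0.32 (SE 1.49), Ddit3 at -0.16 (SE 0.47), Atf3 at 0.14 (SE 1.31), Phgdh at -0.10 (SE 0.17), Asns at 0.02 (SE 0.11), Atf4 at -0.01 (SE 0.13) and Sesn2 at -0.01 (SE 0.29) had overlapping groups. Without the 5 libraries these were -0.27 for Ddit4, -0.10 for Trib3, -0.36 for Ddit3, -0.09 for Atf3, -0.04 for Phgdh, -0.09 for Asns, 0.06 for Atf4 and -0.21 for Sesn2.

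In ADcontrol brains, Atf4 was at 95.6, 94.4, 115, 102 and 69.3 CPM with vehicle and at 140, 103, 97.0, 117 and 112 CPM with Cmpd60, with 2 of 5 treated brains above the vehicle range. Its log2 difference of 0.25 (SE 0.12, unadjusted p-value 0.0425, adjusted p-value 0.999 in edgeR) was 0.07 without the 5 libraries with fewer than 17000 genes detected, among which Cmpd60 replicate 152 and vehicle-155 held the highest and lowest value. Atf3 at 1.90 (SE 1.27), Ddit3 at 0.74 (SE 0.45) and Chac1 at -0.22 (SE 0.88) became 0.50, -0.08 and -0.03 without these libraries. Sesn2, Ddit4, Phgdh, Psat1, Asns and Trib3 lay between -0.42 and 0.19 with overlapping groups, and between -0.42 and 0.06 without these libraries. The difference of the Cmpd60 effect between the genotypes passed the threshold for none of the 10 genes in edgeR, DESeq2 or limma-voom and for 0 of all genes in edgeR, and the unadjusted p-value was below 0.05 for Ddit4 alone, at -0.66 (SE 0.32, adjusted p-value 0.974 in edgeR), beside 5.09% of all genes. Without the 5 libraries that value was -0.33 (SE 0.26), and the other 9 genes lay between -0.59 and 0.32. Between vehicle-treated APPSWE and ADcontrol brains, none of the 10 genes passed the threshold or had an unadjusted p-value below 0.05 in edgeR, and none passed it in DESeq2 or limma-voom, beside 0.00862% and 8.67% of all genes. The differences there ran from -0.33 (SE 0.88) for Chac1 to 0.54 (SE 0.44) for Ddit3, and without the 5 libraries from -0.18 for Phgdh to 0.69 for Atf3, with -0.17 for Chac1 and 0.30 for Ddit3.

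Outside the kidney, 0 of the wider ATF4 genes passed the threshold in edgeR, and in hearts 3 did in DESeq2 and 1 in limma-voom. The shares of all genes that passed in DESeq2 and limma-voom are not given here. In 20-month brains, 22 of the 44 were higher and 22 lower, with a median log2 difference of -0.0030 and 1 unadjusted p-value below 0.05, beside 13.8% of all genes, that of the glycine transporter Slc6a9 at -0.20 (SE 0.06). In hearts, 22 were higher and 22 lower, with a median of -0.0062, and 5 higher and 3 lower genes had an unadjusted p-value below 0.05, beside 13.5% of all genes. Among them, the transporter chain Slc3a2 had a difference of 0.32 (SE 0.10), the methionine tRNA synthetase Mars1 one of 0.21 (SE 0.06) and the mitochondrial folate enzyme Aldh1l2 one of -0.50 (SE 0.14). Atf5 had a difference of 0.34 (SE 0.13, adjusted p-value 0.244 in edgeR) in hearts, at 39.3 to 75.0 CPM in vehicle and 60.7 to 74.4 CPM in treated hearts. In APPSWE and ADcontrol brains, 42 were tested in each, 19 higher and 23 lower in both, with medians of -0.0038 and -0.022 and 4 and 2 unadjusted p-values below 0.05, beside 9.46% and 3.67% of all genes.

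**Figure D4:**
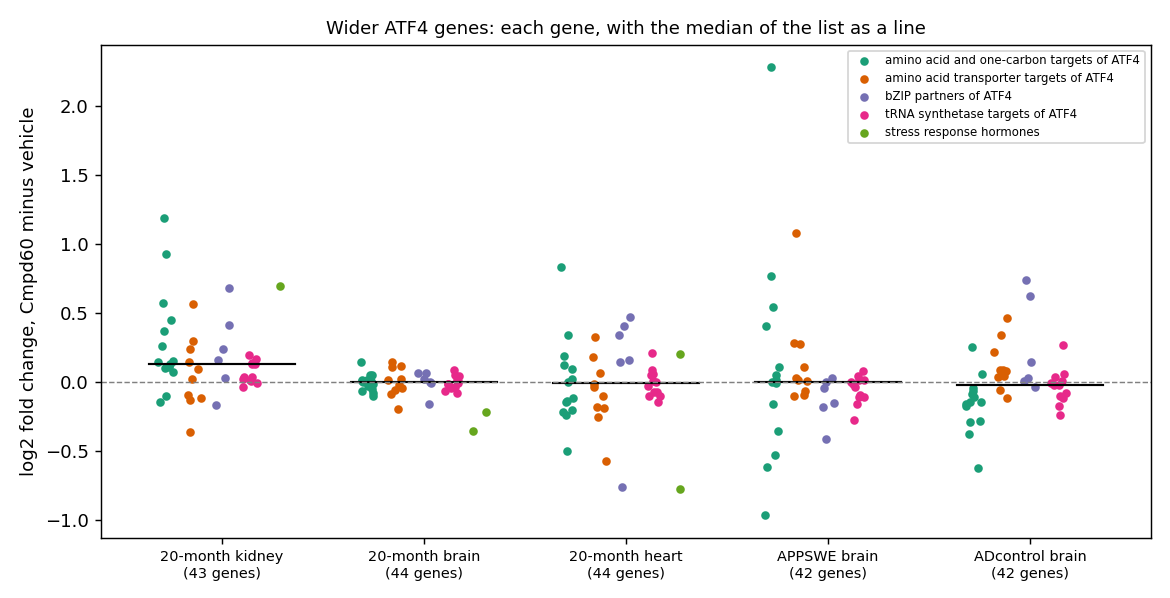
Each point is 1 gene of the wider ATF4 list, coloured by its function, with its log2 fold change for Cmpd60 against vehicle on the vertical axis, 1 column per comparison, and a line at the median of the list. The median is 0.13 in the kidney and within 0.03 of 0 in the other 4 comparisons.

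Upstream of ATF4, Oma1 passed the threshold in the heart in edgeR. That call was not recomputed in DESeq2, in limma-voom or with libraries left out. Oma1, a mitochondrial protease that relays mitochondrial stress to the response, was at 25.6 to 28.5 CPM in vehicle and 20.7 to 24.1 CPM in treated hearts, a log2 difference of -0.31 (SE 0.07, adjusted p-value 0.0441 in edgeR), with no overlap between the groups, as for 1.24% of all genes tested in that direction. It was the only one of the 16 genes of eIF2alpha kinases, phosphatases and eIF2B to pass there, beside 1.18% of all genes, and none of the 16 passed in brain, APPSWE or ADcontrol brains in edgeR. Oma1 had a difference of -0.29 (SE 0.10, adjusted p-value 0.224 in edgeR) in 20-month brains. Of the 20 genes of the XBP1 and ATF6 arms, 18 were higher and 2 lower in treated hearts with a median of 0.15, none past the threshold in edgeR and 4 with an unadjusted p-value below 0.05, beside 13.5% of all genes, among them the ER protein Sdf2l1 at 0.79 (SE 0.22) and the chaperone Hspa5 at 0.32 (SE 0.12). In 20-month brains, 15 of the 20 were lower, with a median of -0.03.

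The levels of the 10 genes in vehicle-treated mice were set side by side in the joint fit of the aged tissues. The CPM values of that fit use TMM factors over all 34 aged libraries, so the same library has other values here than in the fit of its own tissue. Between heart and brain, 9 of the 10 passed the threshold in edgeR, beside 72.1% of all 27105 genes tested, and 55.0% of all genes did not overlap between these tissues. Most genes thus differed between heart and brain. Kidney levels are a description. Over all 27105 genes, 19661 passed the threshold between vehicle kidney and brain and 15378 between vehicle kidney and heart, so most genes differed there too. The share of all genes without overlap between kidney and another tissue is not given here. A lack of overlap with kidney is thus not read as a trait of these 10 genes. Levels are compared for each gene across tissues and not between genes, since gene length was not used.

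The enzymes of amino acid synthesis were highest in brain. Asns was at 76.3 ± 5.00 CPM (SD, n = 6) in brain, 6.31 ± 1.80 CPM (SD, n = 5) in kidney and 4.33 ± 0.742 CPM (SD, n = 6) in heart. Phgdh was at 58.8 ± 5.22 CPM in brain, 10.7 ± 3.05 CPM in kidney and 2.62 ± 1.23 CPM in heart, and Psat1 at 116 ± 5.24 CPM, 37.3 ± 11.5 CPM and 6.52 ± 1.48 CPM. No library of another tissue reached the brain range for these 3 genes, and the log2 difference of heart from brain was -4.14 (SE 0.16) for Asns, -4.50 (SE 0.22) for Phgdh and -4.15 (SE 0.16) for Psat1. Between kidney and heart the groups did not overlap for Phgdh and Psat1, with log2 differences of 2.04 (SE 0.22) and 2.51 (SE 0.16), whereas for Asns they did, and 3 of 5 kidneys were above the heart range with a difference of 0.54 (SE 0.16).

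Chac1 was also highest in brain. Its mean was 5.67 ± 0.678 CPM in the 6 brains, 1.5 ± 1.29 CPM in the 6 hearts and 0.658 ± 0.130 CPM in the 5 kidneys. The brain range of 4.70 to 6.53 CPM did not meet the heart range of 0.313 to 3.90 CPM, and the log2 difference of heart from brain was -1.86 (SE 0.31, adjusted p-value 1.56e-06 in edgeR). Kidney and heart overlapped, with a difference of -1.24 (SE 0.35), which was -0.69 without heart vehicle replicate 67.

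The stress transcription factors and Trib3 were highest in heart. Atf3 was at 14.0 ± 6.45 CPM in heart, 3.79 ± 2.13 CPM in kidney and 1.13 ± 0.285 CPM in brain, with no overlap of any pair and a log2 difference of heart from brain of 3.62 (SE 0.39). Trib3 was at 4.33 ± 0.689 CPM in heart, 1.40 ± 0.488 CPM in kidney and 0.900 ± 0.301 CPM in brain, and the difference between kidney and brain of 0.64 (SE 0.31) came with overlapping groups. Ddit3 was at 12.7 ± 2.12 CPM in heart, 9.13 ± 0.660 CPM in brain and 5.02 ± 0.879 CPM in kidney, without overlap. Atf4 was the exception among the factors, at 96.9 ± 9.86 CPM in heart and 98.0 ± 6.07 CPM in brain with a difference of -0.02 (SE 0.08, 95% interval from -0.17 to 0.14), and at 57.6 ± 2.41 CPM in kidney, below every brain and heart library.

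The 2 restrainers of mTORC1 signalling differed in their order. Sesn2 was highest in kidney, at 71.2 ± 12.0 CPM, compared with 16.6 ± 1.07 CPM in brain and 5.79 ± 0.725 CPM in heart, with no overlap and a log2 difference of 3.62 (SE 0.16) between kidney and heart. Ddit4 was at 38.6 ± 8 CPM in brain, 30.3 ± 7.63 CPM in heart and 20.6 ± 3.20 CPM in kidney, and heart and brain overlapped. Their difference of -0.35 (SE 0.15, adjusted p-value 0.0383 in edgeR) missed the threshold when any of the brain replicates 30 and 32 or the heart replicates 63, 64, 66 and 67 was left out, with adjusted p-values from 0.0554 to 0.140.

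**Figure D5:**
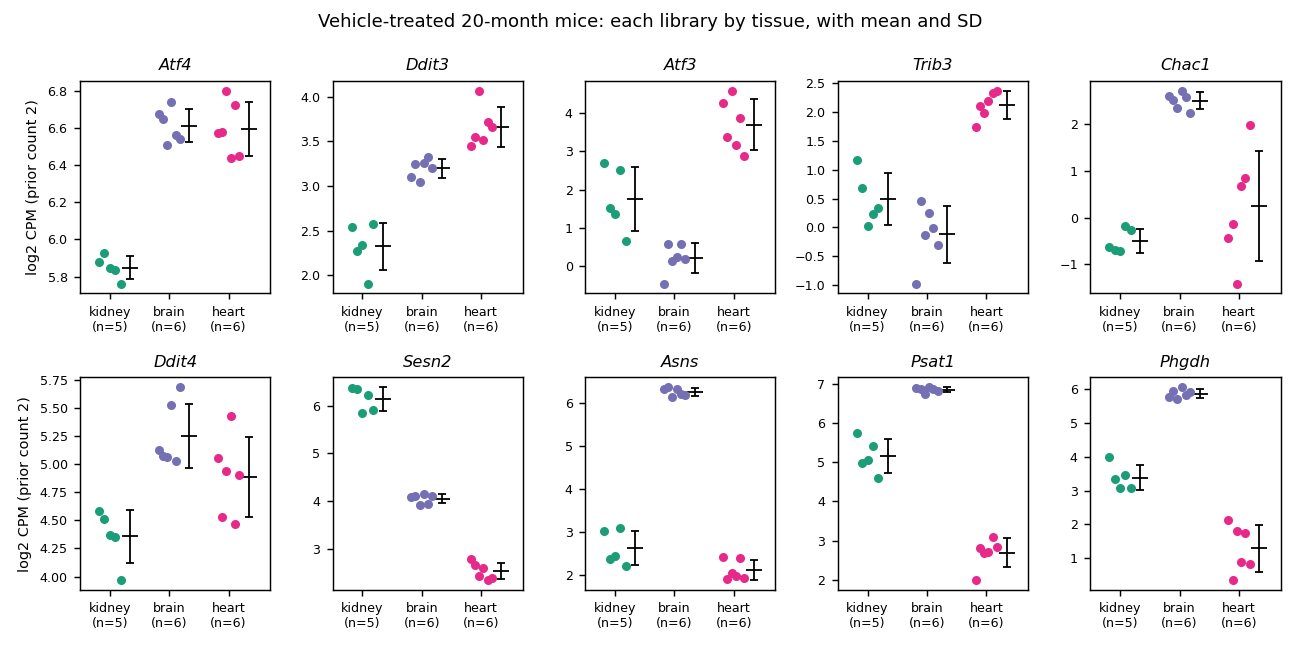
Each panel shows 1 gene in vehicle-treated 20-month mice, with log2 CPM (prior count of 2) on the vertical axis and 1 point per library in order of its number for 5 kidneys, 6 brains and 6 hearts, beside the mean and SD. Asns, Psat1, Phgdh and Chac1 are highest in brain, Atf3, Trib3 and Ddit3 in heart and Sesn2 in kidney.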

How the data were processed

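Poly(A) RNA was sequenced from 54 libraries. The authors trimmed reads with Trimmomatic 0.32, aligned them with HISAT2 2.1.0 and made the deposited counts per Ensembl gene with HTSeq 0.11.0, one unnormalised count file per library. The summary lines at the end of each file, for reads given to no gene, held 15.4 to 22.1% of the total and were left out. Groups followed the sample titles. Symbols were matched for 32651 of 54232 genes.

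Each tissue and the dementia cohort were fitted across all genes that exceeded 2 counts in 3 or more of its libraries, using TMM factors and the quasi-likelihood test of edgeR 4.0.16 in R 4.3.3, two-sided, with Benjamini-Hochberg adjustment over all genes tested and a threshold of 0.05. SE values come from the fitted difference and its F statistic. The 3 aged tissues shared a fit for the comparisons between tissues. P-values rest on the spread between libraries within groups, pooled over all groups of a fit, with each library taken as a separate mouse. The 95% intervals use the t distribution with the degrees of freedom of the edgeR test. Differences between vehicle kidneys and other tissues were fitted too, but are given without a test because those kidneys entered the choice of the set. DESeq2 1.42.0, limma-voom (limma 3.58.1), other filters and each library left out were alternatives, and the test was checked on simulated counts. The text names the 10 genes of the set, from each pathway list up to 2 higher and 2 lower genes with the largest change among those past the threshold (where none passed, with an unadjusted p-value below 0.05), and the 5 genes of at least 1 CPM most like Chac1. The genes and lists were chosen with earlier results of these data known. Hdac1 and Hdac2 were added as the targets of the compound.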

Additional observations from a re-analysis of the deposited data

Results flagged for a closer look

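In each group of 4 to 10 libraries, the highest and lowest value of each of the 10 genes was compared with its neighbours by Dixon's gap ratio. Of 100 groups of values, 10 had a library that stood apart at the 95% level, and chance alone gives about 1 in 20. Of the 10, 7 lie in dementia libraries with fewer than 17000 genes detected.

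In the ADcontrol Cmpd60 library 152, with 15084 genes detected, Chac1 was at 0 CPM against 3.62 to 6.27 CPM in the others of the group, and Ddit3 was at 32 CPM against 8.7 to 11.1 CPM. In the ADcontrol library vehicle-155, with 15044 genes detected, Ddit3 was at 0.804 CPM against 8.72 to 12.9 CPM, Trib3 at 0 CPM against 0.543 to 1.05 CPM and Sesn2 at 6.71 CPM against 20.9 to 29.5 CPM. Atf3 was at 0 CPM in APPSWE Cmpd60 library 141 and at 1.14 to 1.57 CPM in the others. Chac1 was at 0 CPM in the APPSWE library vehicle-146 and at 4.18 to 5.87 CPM in the others.

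The other 3 lie elsewhere. Psat1 was at 137 CPM in ADcontrol Cmpd60 library 157, with 23014 genes detected, against 115 to 121 CPM. Phgdh was at 55.7 CPM in 20-month brain Cmpd60 library 33, with 26475 genes detected, against 65.6 to 71.5 CPM. Trib3 was at 0.259 CPM, or 7 reads, in kidney Cmpd60 library 53, with 19385 genes detected, against 1.21 to 2.33 CPM. Whether the number of genes detected has a part in these values was not tested.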

How the results depend on the processing

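Over all comparisons, 3260 differences of the 10 genes were recomputed under other settings. Of these, 3220 kept their side of the threshold and moved by no more than 1 SE where not called, 25 moved further, 8 were no longer past the threshold, 7 were newly past it and 0 changed sign while called. Among values that were never past the threshold, 87 changed sign. In the kidney the number of the 10 genes past the threshold was 0 in edgeR, 3 in DESeq2 and 0 to 1 when each library was left out, the 1 being Atf4 without Cmpd60 replicate 52. Of the wider ATF4 genes, 1 passed in the kidney in edgeR, 3 in DESeq2, 3 with no filter on low counts and 0 to 3 with each library left out. The count was 3 without Cmpd60 replicate 52 and 2 without replicate 55, and Atf5 was lost without Cmpd60 replicates 50 or 51 or vehicle replicates 46, 47 or 49. In the heart 0 passed in edgeR, 3 in DESeq2, 1 in limma-voom and 0 to 1 with each library left out, the 1 without Cmpd60 replicates 68 or 71 or vehicle replicate 66. The shares of all genes past the threshold under the other settings are not given here, so these counts cannot be set against them. The cause of these changes was not tested. Leaving out the sparse libraries of the dementia cohort and of the kidney was chosen after seeing the data. No paired analysis was possible because the replicate numbers are unique library numbers that no groups share. At the depth of these libraries, Chac1 in kidney and heart and Trib3 in brain rest on fewer than 130 reads per library.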
